A study of Mus musculus with 9 samples.

Results

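Levels of 10 genes were followed in the colon of mice given dextran sodium sulfate (DSS) with or without electroacupuncture (EA), namely *Cd3e*, *Cd3g*, *Cd4*, *Cd8a*, *Itgae*, *Gzma*, *Gzmb*, *Ccl5*, *Xcl1* and *Il15*. They are 10 of the 27719 genes in the deposited count table, found there by symbol. All but *Il15* stand for T cells, cytotoxic lymphocytes and the lymphocytes that live inside the gut epithelium. *Il15* encodes a cytokine on which the last of these depend. *Xcl1* and *Il15* were chosen by their counts in these same libraries, since both were low in the DSS group. The comparison of DSS with control is therefore a description with no test for every one of the 10 genes, and so is each comparison of *Xcl1* and *Il15*. The lists of other genes below were also chosen with earlier results of these data known. The p-values of genes named from those lists do not allow for that choice.

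The study asked what EA changes in DSS colitis, and it had 3 groups of 3 C57BL/6J mice, with 1 library of colon RNA per mouse. Distilled water was drunk by the control group and 2.5% DSS, for 7 days, by both other groups, a chemical injury of the colon epithelium that serves as a model of ulcerative colitis. After 5 days of modeling, the DSS + EA group received EA at ST36, an acupoint below the knee, on both sides once a day for 5 days, 30 minutes each time at 2 Hz and 0.2 mA, and the mice of the other groups were only held for the same time. No group had needles without current and none had EA without DSS, so the needle, the current and the response of a healthy colon to EA cannot be told apart here. Sex and age are not given in the sources used here. The libraries hold whole colon, not sorted cells.

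Intraepithelial lymphocytes sit between the epithelial cells of the gut and are mostly CD8+ T cells, many of them with a gamma delta receptor. The CD3 chains, among them those encoded by *Cd3e* and *Cd3g*, carry the signal of the T cell receptor, and CD4 and CD8 are the coreceptors that read MHC class II and class I. CD103, the product of *Itgae*, pairs with the beta 7 integrin and binds E-cadherin on epithelial cells. Granzymes A and B are proteases that killer cells release into their targets through perforin. The chemokine CCL5 acts on chemokine receptors such as CCR1 and CCR3, and XCL1, made mainly by CD8+ T cells and natural killer cells, acts on XCR1, a receptor of the dendritic cells that cross-present antigen. Interleukin 15 is held on the surface of epithelial and myeloid cells by IL15RA and shown to lymphocytes that carry IL2RB and IL2RG, and intraepithelial lymphocytes depend on it. The butyrophilin-like proteins of the epithelium sustain gamma delta intraepithelial lymphocytes in the mouse.

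All 10 genes are protein coding, and their positions are those of GENCODE M21 on GRCm38. *Cd3g* (chr9:44969572-44980431) and *Cd3e* (chr9:44998740-45009627) are neighbours on the minus strand, and *Cd8a* (chr6:71373427-71379173, plus strand) and *Cd4* (chr6:124864692-124888221, minus strand) share a chromosome. *Itgae* (chr11:73090583-73147446, plus strand) and *Ccl5* (chr11:83525778-83530518, minus strand) also share one. *Gzma* lies at chr13:113093825-113100981, *Gzmb* at chr14:56258838-56262260, *Xcl1* at chr1:164931644-164935527 and *Il15* at chr8:82331632-82403222, all on the minus strand.

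The 250 bases before the start of *Xcl1*, *Gzma* and *Gzmb* are printed because these are the secreted effector genes with a RefSeq promoter, and their mean levels were highest in DSS + EA. They come from RefSeq on GRCm38.p6, 5′ to 3′ on the strand of the gene. RefSeq promoters were at hand for 6 of the 10 genes, and *Itgae*, *Ccl5*, *Cd4* and *Il15* are named only. Capitals mark the matches to 4 motifs searched on both strands after the values were known, and a match on the opposite strand is printed as its reverse complement. *Xcl1* is at chr1:164935523-164935772, *Gzma* at chr13:113100982-113101231 and *Gzmb* at chr14:56262335-56262584, each on the minus strand.
Xcl1: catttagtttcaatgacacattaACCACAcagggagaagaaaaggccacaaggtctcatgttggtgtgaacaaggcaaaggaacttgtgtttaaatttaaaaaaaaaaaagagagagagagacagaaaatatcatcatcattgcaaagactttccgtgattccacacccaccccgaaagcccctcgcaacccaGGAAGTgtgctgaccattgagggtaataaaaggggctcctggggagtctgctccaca
Gzma: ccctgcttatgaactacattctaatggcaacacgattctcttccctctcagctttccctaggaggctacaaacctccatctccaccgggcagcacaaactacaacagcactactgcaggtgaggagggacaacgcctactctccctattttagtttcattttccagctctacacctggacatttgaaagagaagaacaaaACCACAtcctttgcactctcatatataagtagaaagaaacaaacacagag
Gzmb: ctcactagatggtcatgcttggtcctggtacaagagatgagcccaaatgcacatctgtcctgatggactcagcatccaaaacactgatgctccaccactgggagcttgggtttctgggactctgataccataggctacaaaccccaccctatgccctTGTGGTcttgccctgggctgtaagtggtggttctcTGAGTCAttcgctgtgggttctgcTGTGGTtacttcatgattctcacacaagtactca
The motifs were TGTGGT, a core that RUNX proteins read, GGAAGT, a core of ETS proteins, TGANTCA, the AP-1 site, and TATAAA. Of 32851 RefSeq promoters cut to the same 250 bases, 14.0% held TGTGGT, 19.7% held GGAAGT, 6.75% held TGANTCA and 12.4% held TATAAA. *Gzmb* held TGTGGT in 2 places, 93 to 88 and 34 to 29 bases before its start, and TGANTCA 58 to 52 bases before it. *Gzma* held TGTGGT on the opposite strand, 50 to 45 bases before its start. *Xcl1* held TGTGGT on the opposite strand, 227 to 222 bases before its start, and GGAAGT 57 to 52 bases before it. In the other promoters at hand, that of *Cd3e* held GGAAGT on the opposite strand, 18 to 13 bases before its start, and those of *Cd8a* and *Cd3g* held none of the 4. TATAAA was in none of the 6, and no matches overlapped. These are matches of letters in promoters that were printed partly for the levels of their genes. Whether a match goes with a level was not tested.

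Between 2627695 and 4235576 reads per library were counted on genes, so that 3 counts came to between 0.647 and 1.14 CPM (reads of a gene scaled to the size of its library after TMM scaling). Several of the 10 genes had only a few reads per mouse, and the error of such values is mostly counting error. Epithelial markers were present in every mouse, summing to between 19718 and 38462 CPM in the control group, 3105 and 14554 CPM in the DSS group, and 14667 and 21889 CPM in the DSS + EA group. DSS mouse 1 stood apart from the other DSS mice, with 4528 CPM of neutrophil markers against 25054 and 27370 CPM and with 14554 CPM of epithelial markers against 5387 and 3105 CPM. Markers that define intraepithelial lymphocytes were sparse, with 0 to 9 reads of *Cd8a*, 0 to 7 of *Itgae* and 0 to 7 of *Cd8b1* per mouse. No values of the gamma delta constant regions are given here. *Cd4* and *Ccl5* are used by many other cells, and *Il15* is made by epithelial and myeloid cells. The 10 genes therefore describe the whole colon and not a defined cell type. In whole tissue, fewer cells of a type and less RNA per cell cannot be told apart.

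*Il15* was low in the DSS group and not in the DSS + EA group. The control mice had 13.6, 10.2 and 20.5 CPM of *Il15*, the DSS mice 2.87, 1.08 and 2.17 CPM, and the DSS + EA mice 12.4, 13.3 and 10.1 CPM. Every DSS mouse lay below every mouse of both other groups, and the DSS + EA mice lay within or just below the range of the control mice. The group means were 14.8 ± 5.25 CPM in control, 2.04 ± 0.904 CPM in DSS and 11.9 ± 1.68 CPM in DSS + EA (SD, n = 3 each). The log2 fold change (log2FC) of *Il15* was -2.88 (SE 0.40) in DSS against control, 2.58 (SE 0.40) in DSS + EA against DSS, and -0.30 (SE 0.34) in DSS + EA against control, from an edgeR fit over all genes. Without DSS mouse 1 the first became -3.24 and the second 2.94. No p is given for these, since *Il15* was chosen for the first.

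**Figure D1:**
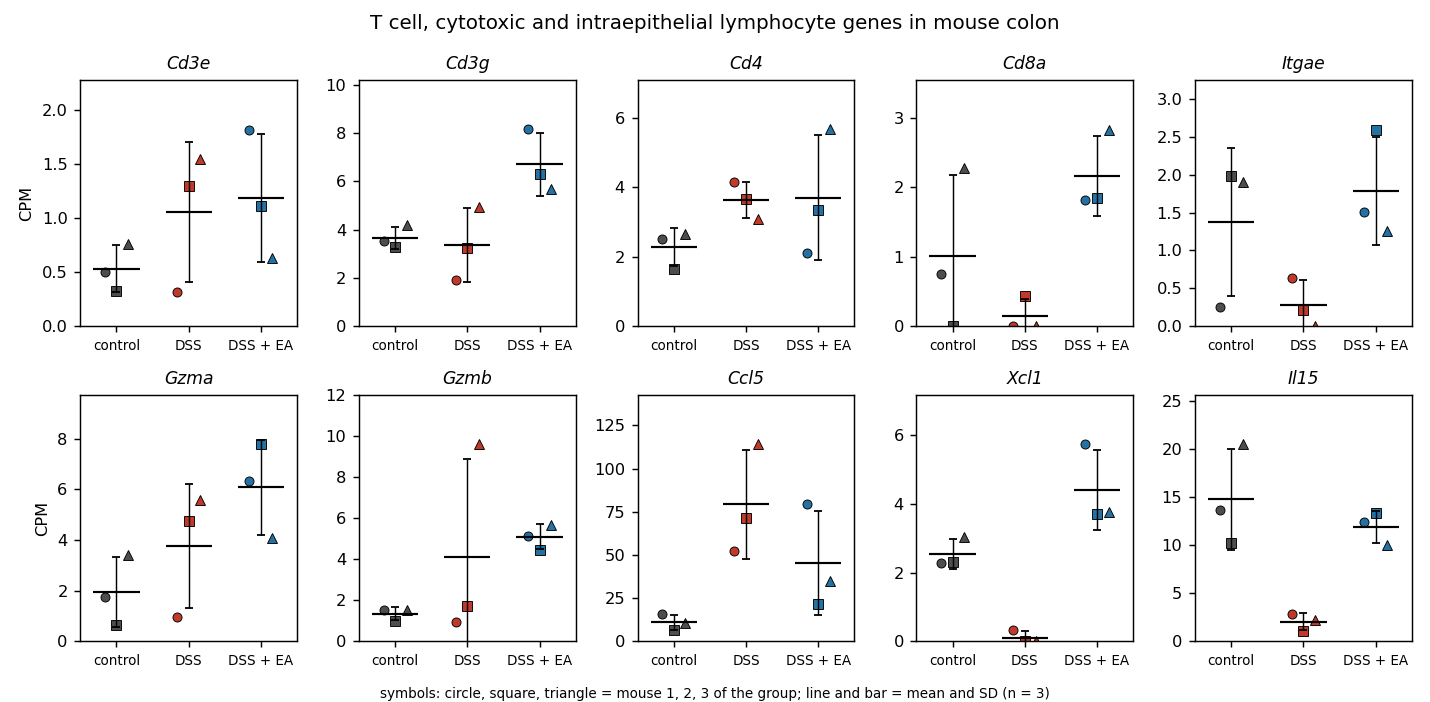
CPM of the 10 genes (vertical axes, linear, each with its own scale) in the 3 groups of mice. Each symbol is 1 mouse, lines are means and bars are SD (n = 3), cut off at 0; *Xcl1* and *Il15* are lowest in all 3 DSS mice, *Ccl5* is lowest in the control mice, and *Cd3g* is highest in the DSS + EA mice.

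The chains that present and receive interleukin 15 did not follow *Il15*. *Il15ra*, the chain that presents it, had 6.86 ± 1.41 CPM in control, 18.0 ± 6.66 CPM in DSS and 7.81 ± 0.388 CPM in DSS + EA. It rose in DSS against control (log2FC 1.39, SE 0.31, adjusted p = 0.00596 by edgeR's quasi-likelihood test with Benjamini-Hochberg adjustment over 12566 genes) and fell in DSS + EA against DSS (log2FC -1.20, SE 0.30, edgeR adjusted p = 0.0138). Both calls held under every alternative run. *Il2rg*, the common gamma chain, had 9.17 ± 2.51, 22.1 ± 8.64 and 24.2 ± 3.98 CPM in the 3 groups, and it rose in DSS against control (log2FC 1.26, edgeR adjusted p = 0.0127, but 0.0556 without control mouse 2). Its level in DSS + EA was close to that in DSS (log2FC 0.13, SE 0.31, edgeR adjusted p = 0.762) and above control (log2FC 1.40, edgeR adjusted p = 0.0491), a call that was lost under 10 of 16 alternatives. *Il2rb* had 1 to 9 reads per mouse and was not tested.

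In the wider list of interleukin 15 and interleukin 2 receptor genes, 12 of 18 were tested. In DSS against control, where 40.9% of all genes tested passed an adjusted p of 0.05, 4 of the 12 rose and 1 fell, with a median log2FC of 0.77 against 0.02 over all genes tested. Between DSS + EA and DSS, where 35.5% of all genes passed, 1 rose and 4 fell in DSS + EA, with a median of -0.70 against -0.02. Between DSS + EA and control, where 3.64% of all genes passed, 2 rose and 0 fell, with a median of 0.04 against 0.00. The gene that passed and moved in the direction of *Il15* was *Irf1*, a transcription factor that drives *Il15* in many cells. A link between them was not tested here. *Irf1* had 73.6 ± 4.71 CPM in control, 39.7 ± 14.4 CPM in DSS and 101 ± 6.28 CPM in DSS + EA. It fell in DSS (log2FC -0.89, SE 0.24, edgeR adjusted p = 0.0149, with 0.0509 without control mouse 1 and 0.0575 without DSS mouse 2) and rose in DSS + EA against DSS (log2FC 1.35, SE 0.24, edgeR adjusted p = 0.00297). *Stat3*, a signal transducer of many cytokines, rose in DSS (log2FC 1.94, edgeR adjusted p = 0.000421) and fell in DSS + EA against DSS (log2FC -1.52, edgeR adjusted p = 0.00209). *Socs3*, a brake on cytokine signalling, rose in DSS (log2FC 4.38, edgeR adjusted p = 0.00017). It fell in DSS + EA against DSS (log2FC -1.62, edgeR adjusted p = 0.015), a call lost in 2 of 16 alternatives. It stayed above control in DSS + EA (log2FC 2.76, edgeR adjusted p = 0.0104, but 0.0702 and 0.0524 without control mouse 1 or 2). These genes are used by many cells besides lymphocytes, and the neutrophil, macrophage and epithelial markers that moved in the same comparisons are given below, and their part in these results was not tested.

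Several epithelial genes whose products face intraepithelial lymphocytes were low in the DSS mice. *Btnl1* had 32, 15 and 22 reads in the control mice, 3, 0 and 0 in the DSS mice, and 22, 18 and 8 in the DSS + EA mice. From the summed counts, its share was 26.3-fold lower in DSS than in control (exact 95% interval 8.63 to 131) and 19.2-fold higher in DSS + EA than in DSS (6.18 to 96.2), intervals that cover counting error only. It fell in DSS (edgeR adjusted p = 0.00221) and rose in DSS + EA against DSS (edgeR adjusted p = 0.00587). All its reads in the DSS group came from DSS mouse 1, and without that mouse the adjusted p by edgeR were 0.000693 and 0.00148. *Btnl6* had 55.7, 55.1 and 97.0 CPM in control, 28.7, 3.67 and 1.55 CPM in DSS, and 129, 91.1 and 104 CPM in DSS + EA. It fell in DSS (log2FC -2.64, SE 0.77, edgeR adjusted p = 0.0215), a call lost in 3 of 16 alternatives (0.0664 without control mouse 3, 0.0674 without DSS mouse 2 and 0.0518 with only both groups compared in the fit). It rose in DSS + EA against DSS (log2FC 3.28, SE 0.79, edgeR adjusted p = 0.0109). Without DSS mouse 1 the log2FC of *Btnl6* were -4.67 and 5.32. *H2-T3*, the thymus leukemia antigen that CD8 alpha homodimers bind, had 18.8 ± 11.6 CPM in control, 0.957 ± 1.66 CPM in DSS and 15.9 ± 7.70 CPM in DSS + EA, and it fell in DSS (log2FC -4.40, SE 1.00, edgeR adjusted p = 0.00666) and rose in DSS + EA against DSS (log2FC 4.16, SE 1.01, edgeR adjusted p = 0.0111). Its reads in the DSS mice numbered 9, 0 and 0. Without DSS mouse 1 no read was left in the group and the fitted log2FC of *H2-T3* were -8.97 and 8.74, values that depend on the prior count and are no bound, and without DSS mouse 2 they were -3.67 and 3.44, with every adjusted p by edgeR still under the threshold.

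**Figure D2:**
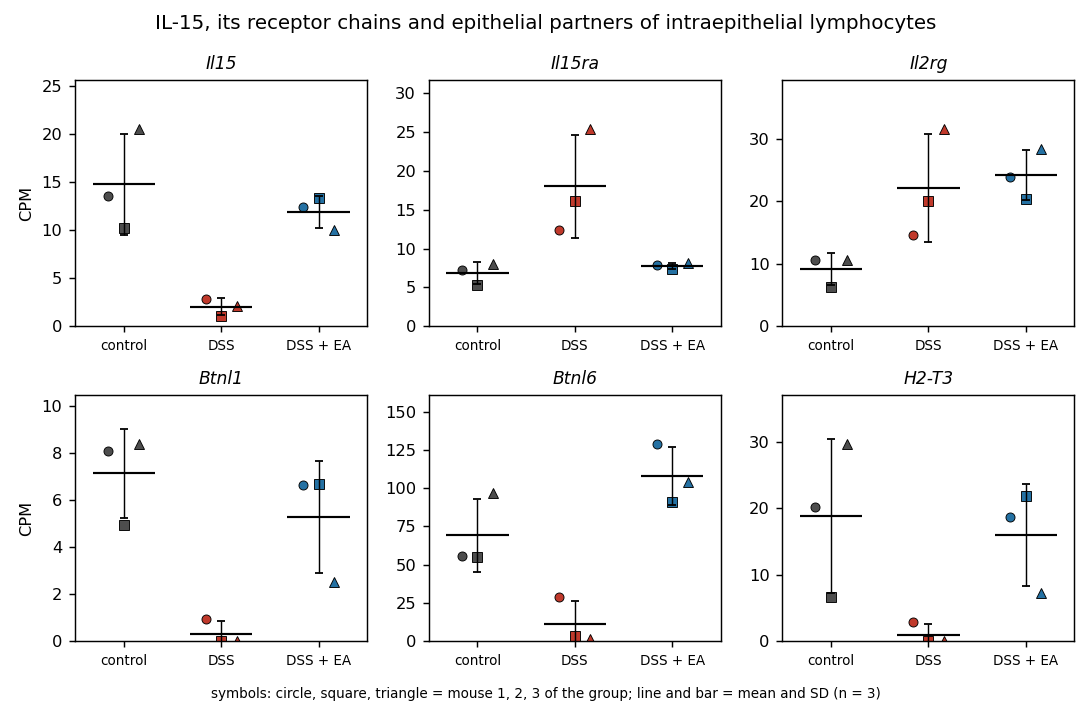
CPM of *Il15*, of its receptor chains *Il15ra* and *Il2rg*, and of the epithelial genes *Btnl1*, *Btnl6* and *H2-T3* (vertical axes, linear) in the 3 groups. Each symbol is 1 mouse, lines are means and bars are SD (n = 3), cut off at 0; *Il15* and the 3 epithelial genes are lowest in the DSS mice, where *Il15ra* is highest.

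Of the 15 tested genes among 20 epithelial supports of intraepithelial lymphocytes, 2 rose and 4 fell in DSS against control, with a median log2FC of -0.50. Compared with the DSS group, 4 rose and 1 fell in DSS + EA, with a median of 0.75, and in DSS + EA against control 1 rose and 0 fell, with a median of 0.13. These counts were close to the shares of all genes tested that passed, 40.9%, 35.5% and 3.64% in the 3 comparisons, so that the list as a whole did not stand out by its number of calls. *Cdh1*, E-cadherin, the ligand of CD103, did not pass the test in any comparison, with 143 ± 10.3 CPM in control, 92.6 ± 74.3 CPM in DSS and 156 ± 14.5 CPM in DSS + EA. DSS mouse 1 decided this value, since without it the log2FC of *Cdh1* was -1.52 in DSS against control (edgeR adjusted p = 0.000887) and 1.65 in DSS + EA against DSS (edgeR adjusted p = 0.000812). The same held for *Btnl4*, with log2FC of -1.15 and 1.66 that did not pass the test in all mice and of -3.03 (edgeR adjusted p = 0.00041) and 3.55 (edgeR adjusted p = 0.000303) without DSS mouse 1. *Ccl28*, an epithelial chemokine, fell in DSS (log2FC -1.85, SE 0.55, edgeR adjusted p = 0.0228), a call lost in 5 of 16 alternatives, with adjusted p of 0.0549, 0.0746, 0.0732 and 0.0607 without control mouse 1, control mouse 2, DSS mouse 2 or DSS mouse 3 and 0.0512 with only both groups in the fit, while its log2FC was -3.00 without DSS mouse 1. In DSS + EA against DSS *Ccl28* did not pass (log2FC 1.11, edgeR adjusted p = 0.139), but its log2FC was 2.26 without DSS mouse 1 (edgeR adjusted p = 0.00118). *H2-T22*, a nonclassical MHC molecule that some gamma delta receptors bind, was the gene of this list that rose in DSS + EA against both other groups. It had 50.1 ± 8.24 CPM in control, 57.5 ± 11.3 CPM in DSS and 114 ± 7.33 CPM in DSS + EA, with log2FC of 0.98 (SE 0.20, edgeR adjusted p = 0.00564) against DSS and 1.18 (SE 0.20, edgeR adjusted p = 0.0135) against control. The second call was lost in 4 of 16 alternatives, at 0.102 and 0.0773 without control mouse 1 or 2 and 0.0509 and 0.0837 without DSS + EA mouse 1 or 3. Reads of near-identical MHC genes could have been divided between copies in counting.

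The epithelial markers moved with these genes. Over all genes tested, 40.9% passed in DSS against control, 35.5% in DSS + EA against DSS and 3.64% in DSS + EA against control. Of 16 tested epithelial markers, 10 fell and 0 rose in DSS against control, with a median log2FC of -1.77, and 6 rose and 0 fell in DSS + EA against DSS, with a median of 1.42. Compared with control, 0 of 16 passed in DSS + EA by edgeR, with a median of -0.15, while 2 had an unadjusted p under 0.05 and DESeq2 called 0. Of 11 tested neutrophil markers, 11 rose in DSS against control, 8 fell in DSS + EA against DSS and 5 rose in DSS + EA against control. Of 13 macrophage and monocyte markers, 9 rose and 1 fell in DSS against control, 1 rose and 6 fell in DSS + EA against DSS, and 3 rose in DSS + EA against control. Their summed levels were 569 to 631 CPM in control, 1648 to 3181 CPM in DSS and 1074 to 1312 CPM in DSS + EA for macrophages, and 24.3 to 159, 4528 to 27370 and 1197 to 1586 CPM for neutrophils. *Il15* is made by epithelial cells as well as by myeloid cells, and the part of either in its level was not tested.

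*Xcl1* was close to absent in the DSS group. Its reads numbered 9, 7 and 8 in the control mice, 1, 0 and 0 in the DSS mice, and 19, 10 and 12 in the DSS + EA mice. The 3 groups did not overlap, with DSS lowest and DSS + EA highest. The corresponding levels were 2.54 ± 0.435, 0.106 ± 0.184 and 4.41 ± 1.15 CPM. With 1 read in the whole DSS group, the share of *Xcl1* was 27.4-fold lower in DSS than in control (exact 95% interval 4.47 to 1128). It was 49.1-fold higher in DSS + EA than in DSS (8.33 to 1986). These intervals cover counting error only and are no test, since *Xcl1* was chosen by its DSS and control values. Its log2FC in DSS + EA against control was 0.81 (SE 0.43), which the choice of *Xcl1* by its control and DSS values leaves without a test. *Xcr1*, its receptor, had 4, 4 and 1 reads in control, 0, 2 and 0 in DSS, and 1, 0 and 4 in DSS + EA, too few for the test. Of the markers of conventional dendritic cells, 5 of 11 were tested, and 3 rose and 0 fell in DSS against control, while 0 rose and 2 fell in DSS + EA against DSS. The shares of all genes tested that passed in these comparisons were 40.9% and 35.5%. *Batf3*, a transcription factor of the XCR1+ dendritic cells, rose in DSS (log2FC 1.30, SE 0.40, edgeR adjusted p = 0.0266) and fell in DSS + EA against DSS (log2FC -1.46, SE 0.41, edgeR adjusted p = 0.0211), calls lost in 7 of 13 and 4 of 14 alternatives.

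Reads of the CD3 chains in the DSS group lay around or above those in control. *Cd3g* had 3.53, 3.30 and 4.18 CPM in control, 1.91, 3.23 and 4.95 CPM in DSS, and 8.15, 6.30 and 5.67 CPM in DSS + EA. The DSS mice spanned the range of the control mice, and all 3 DSS + EA mice lay above all 6 others. The log2FC of *Cd3g* was -0.12 (SE 0.38) in DSS against control and 0.11 without DSS mouse 1. Compared with the DSS group it was 0.99 in DSS + EA (SE 0.36, unadjusted p = 0.0217, edgeR adjusted p = 0.0577), higher in 3 of 3 mice and short of the threshold. Against control it was 0.87 (SE 0.37, edgeR adjusted p = 0.259). *Cd3e* had 2, 1 and 2 reads in control, 1, 6 and 5 in DSS, and 6, 3 and 2 in DSS + EA, failed the filter on low counts, and overlapped in every comparison. *Cd3d*, another CD3 chain, had 3.81 ± 1.51, 7.25 ± 2.98 and 6.73 ± 1.36 CPM and did not pass the test in any comparison (log2FC 0.95, edgeR adjusted p = 0.0962 in DSS against control, but 0.0217 without DSS mouse 1). *Cd247*, the zeta chain, had 1 to 11 reads per mouse and was not tested.

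The coreceptors differed from each other. *Cd4* had 2.52, 1.65 and 2.66 CPM in control, 4.15, 3.66 and 3.10 CPM in DSS, and 2.11, 3.33 and 5.67 CPM in DSS + EA. All DSS mice lay above all control mice, and the DSS + EA mice overlapped both groups. The log2FC of *Cd4* was 0.66 (SE 0.42) in DSS against control, 0.03 (SE 0.40, edgeR adjusted p = 0.967) in DSS + EA against DSS and 0.69 (SE 0.43, edgeR adjusted p = 0.461) in DSS + EA against control. *Cd8a* had 3, 0 and 6 reads in control, 0, 2 and 0 in DSS, and 6, 5 and 9 in DSS + EA. The DSS + EA mice lay above all DSS mice and overlapped the control mice, 1 of which had no read. From the summed counts, the share of *Cd8a* was 5.14-fold lower in DSS than in control (exact 95% interval 1.06 to 48.9). It was 12.0-fold higher in DSS + EA than in DSS (2.91 to 106). These intervals cover counting error only, not the spread between mice, and are no test. The DSS and control mice overlapped. *Cd8a* failed the filter on low counts, and in the fit without that filter its adjusted p by edgeR was 0.0306 in DSS + EA against DSS and 0.633 in DSS + EA against control. *Cd8b1*, the beta chain of CD8, had 4, 3 and 1 reads in control, 0, 1 and 3 in DSS, and 7, 3 and 4 in DSS + EA, and was not tested.

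*Itgae*, which encodes CD103, had 1, 6 and 5 reads in control, 2, 1 and 0 in DSS, and 5, 7 and 4 in DSS + EA. The DSS + EA mice lay above all DSS mice, and control mouse 1 lay among the DSS mice. Its share was 4.57-fold lower in DSS than in control (exact 95% interval 1.23 to 25.2, counting error only). It was 6.39-fold higher in DSS + EA than in DSS (1.83 to 34.2, counting error only). *Itgae* failed the filter on low counts. Without the filter its adjusted p by edgeR was 0.0593 in DSS + EA against DSS and 0.865 in DSS + EA against control. *Itgb7*, the beta 7 partner of CD103, did not pass the test in any comparison, with 3.72 ± 0.961 CPM in control, 3.48 ± 2.48 CPM in DSS and 2.09 ± 1.88 CPM in DSS + EA.

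Other genes of the T cell receptor and its signalling rose in DSS where they changed. Of 20 genes, 17 were in the count table and 7 were tested. In DSS against control 4 rose and 0 fell, where 40.9% of all genes tested passed, with a median log2FC of 1.57. In DSS + EA against DSS 1 rose and 2 fell, near the 35.5% of all genes that passed, with a median of -1.14. Compared with control, 0 of 7 passed in DSS + EA by edgeR (3.64% of all genes), with a median of 0.82, and 0 had an unadjusted p under 0.05 or were called by DESeq2. The genes that rose in DSS were *Fyb* (log2FC 3.63, edgeR adjusted p = 0.00267), *Lcp2* (log2FC 3.32, edgeR adjusted p = 0.0141), *Thy1* (log2FC 1.66, edgeR adjusted p = 0.00761) and *Lat* (log2FC 1.57, edgeR adjusted p = 0.0193), of which the adaptors *Fyb* and *Lcp2* are also used by myeloid cells and *Thy1* by stromal cells. Without DSS mouse 3 the log2FC was 2.52 for *Fyb* and 2.00 for *Lcp2*. The gene that rose in DSS + EA against DSS was *Lck*, the kinase that CD4 and CD8 carry, with 3.74 ± 1.53, 1.94 ± 0.222 and 5.37 ± 2.64 CPM in the 3 groups (log2FC 1.48, SE 0.48, edgeR adjusted p = 0.0353), a call lost in 7 of 14 alternatives, with 0.146 as its highest adjusted p, without DSS + EA mouse 1. Of 8 tested markers of all leukocytes, 7 rose and 0 fell in DSS against control, and 0 rose and 6 fell in DSS + EA against DSS. Their part in these results was not tested.

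In the list of CD8, gamma delta and intraepithelial lymphocyte genes, 16 of 20 were found in the count table and only 3 had enough reads for the test. Absence from the count table says nothing about the level of a gene. *Cd7*, a surface protein of T and natural killer cells, had 13, 7 and 23 reads in control, 3, 5 and 1 in DSS, and 21, 18 and 11 in DSS + EA. It was lowest in the DSS mice without overlap, fell in DSS (log2FC -2.47, SE 0.64, edgeR adjusted p = 0.0127) and rose in DSS + EA against DSS (log2FC 2.70, SE 0.63, edgeR adjusted p = 0.00994), and both calls held under every alternative run, with a log2FC of -1.79 in DSS against control without control mouse 3. *Jaml*, an adhesion molecule of gamma delta T cells and of myeloid cells, rose in DSS against control (log2FC 1.70, SE 0.35, edgeR adjusted p = 0.00423) and had 5.96 ± 0.449, 19.2 ± 9.72 and 14.7 ± 1.36 CPM in the 3 groups. The summed level of the list was 18.8 to 27.4 CPM in control, 19.8 to 56.9 CPM in DSS and 31.8 to 39.3 CPM in DSS + EA.

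The granzymes were highest on average in the DSS + EA group. *Gzma* had 1.76, 0.660 and 3.42 CPM in control, 0.957, 4.74 and 5.57 CPM in DSS, and 6.34, 7.78 and 4.09 CPM in DSS + EA. *Gzmb* had 1.51, 0.990 and 1.52 CPM in control, 0.957, 1.73 and 9.60 CPM in DSS, and 5.13, 4.45 and 5.67 CPM in DSS + EA. For both, every DSS + EA mouse lay above every control mouse, and the DSS mice ran from within or below the control range up to or past the DSS + EA range. Compared with the control group, the log2FC in DSS + EA was 1.65 for *Gzma* (SE 0.64, unadjusted p = 0.0283, edgeR adjusted p = 0.225) and 1.89 for *Gzmb* (SE 0.77, unadjusted p = 0.034, edgeR adjusted p = 0.245). Both failed the adjusted threshold, with 3 of 3 mice higher. Compared with the DSS group, the log2FC in DSS + EA was 0.66 for *Gzma* (SE 0.58, edgeR adjusted p = 0.398) and 0.35 for *Gzmb* (SE 0.66, edgeR adjusted p = 0.708). DSS mouse 3 held the highest *Gzmb*, and without it the log2FC of *Gzmb* was 1.82 in DSS + EA against DSS (edgeR adjusted p = 0.0151), while without DSS mouse 1 or 2 it was -0.06 or -0.07. In DSS against control the log2FC was 0.99 (SE 0.66) for *Gzma* and 1.54 (SE 0.78) for *Gzmb*, with overlapping groups.

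*Prf1*, perforin, had no read in any control or DSS mouse and 2, 1 and 1 reads in the DSS + EA mice, below the 3 counts that a count of 0 allows in each library. *Serpinb9*, the inhibitor that shields cells from granzyme B, had 5.12 ± 1.17, 8.84 ± 3.44 and 12.7 ± 3.32 CPM in the 3 groups and did not pass the test in any comparison (log2FC 1.33, SE 0.36, edgeR adjusted p = 0.079 in DSS + EA against control, but 0.0404 by DESeq2). Of 19 genes of cytotoxic granules, natural killer and Th1 cells, 4 were tested. In DSS against control 0 rose and 2 fell, with a median log2FC of -0.43. With EA, 2 rose and 0 fell against DSS, with a median of 1.54, and in DSS + EA against control 1 rose and 0 fell, with a median of 1.27. Over all genes tested, 40.9%, 35.5% and 3.64% passed in these comparisons, and nothing is read from counts among 4 genes. The genes that passed were *Nkg7* and *Tnfsf10*.

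*Nkg7*, a granule protein of killer cells, had 14, 10 and 15 reads in control, 2, 9 and 6 in DSS, and 34, 17 and 26 in DSS + EA. The 3 groups did not overlap. *Nkg7* fell in DSS (log2FC -1.42, SE 0.45, edgeR adjusted p = 0.0295), a call lost in 4 of 15 alternatives (0.051 and 0.096 without control mouse 1 or 3, 0.0545 without DSS mouse 1 and 0.0547 with the replicate number as a block). It rose in DSS + EA against DSS (log2FC 2.42, SE 0.43, edgeR adjusted p = 0.0028), which held under every alternative run. *Tnfsf10*, the death ligand TRAIL, had 8.31 ± 1.54 CPM in control, 2.25 ± 0.531 CPM in DSS and 26.9 ± 10.2 CPM in DSS + EA. It fell in DSS (log2FC -1.88, SE 0.40, edgeR adjusted p = 0.00461) and rose in DSS + EA against DSS (log2FC 3.59, SE 0.38, edgeR adjusted p = 0.000386). It also rose in DSS + EA against control (log2FC 1.71, SE 0.33, edgeR adjusted p = 0.0222), a call lost in 5 of 16 alternatives, each without a control mouse or without DSS + EA mouse 1 or 3, with adjusted p up to 0.145. *Tnfsf10* is made by epithelial and myeloid cells too. The summed level of the list was 22.7 to 28.1 CPM in control, 14.7 to 26.0 CPM in DSS and 44.1 to 76.7 CPM in DSS + EA, the last above all 6 other mice. *Tnfsf10*, at 26.9 CPM on average in DSS + EA, and *Serpinb9* were large parts of that sum. Of the 19 genes, 15 were not tested, so the sum is no measure of killer cells.

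**Figure D3:**
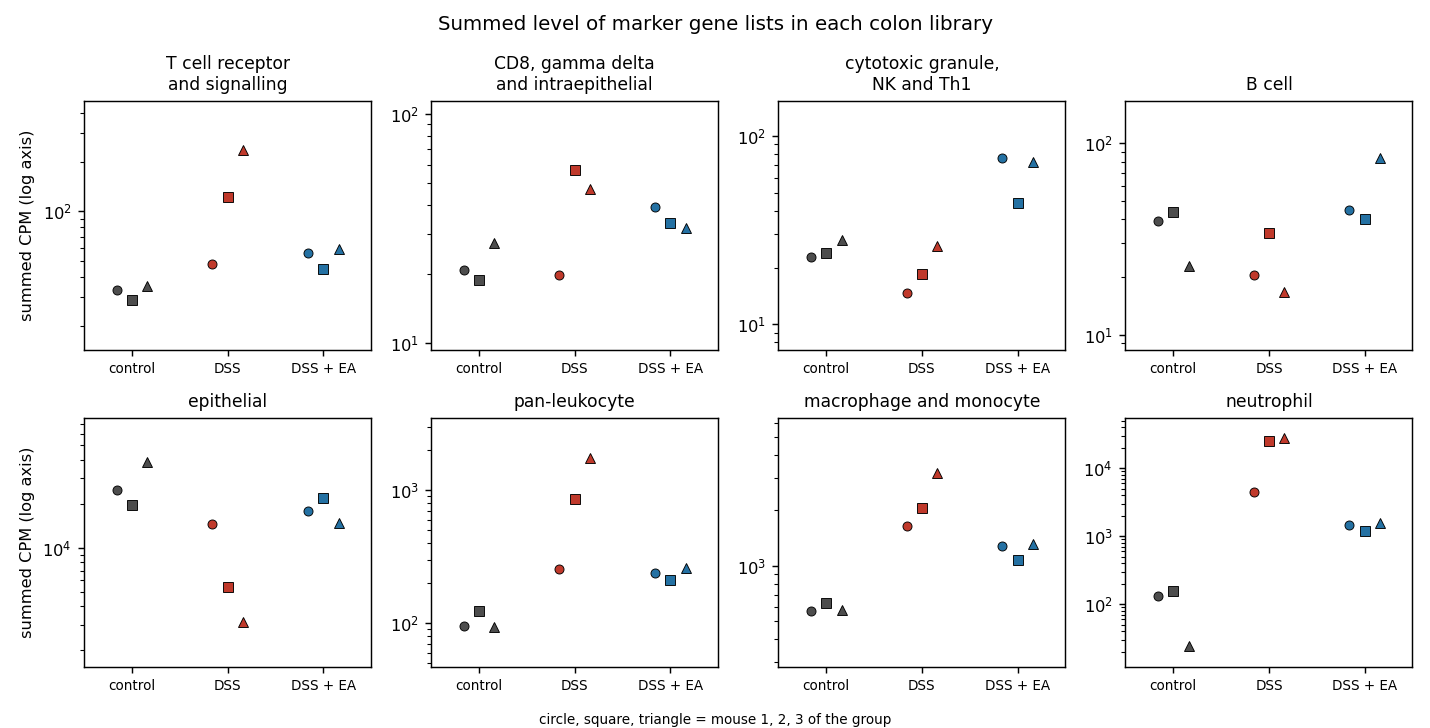
Summed CPM of 8 marker lists (vertical axes, logarithmic) in each mouse of the 3 groups, none of which holds any of the 10 genes. The cytotoxic list, of which *Tnfsf10* and *Serpinb9* are large parts, is highest in the 3 DSS + EA mice (44.1 to 76.7 CPM). Neutrophil markers are highest in the DSS mice, and DSS mouse 1 (circle) lies nearest to the other groups for the epithelial, leukocyte and neutrophil lists.

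*Ccl5* stood highest above control in the DSS group among the 10 genes. The control mice had 15.6, 6.60 and 10.7 CPM of *Ccl5*, the DSS mice 52.3, 71.1 and 114 CPM, and the DSS + EA mice 79.4, 21.5 and 34.9 CPM. Every control mouse lay below every mouse of the other groups, and DSS + EA mouse 1 lay among the DSS mice while the other two lay below them. The log2FC of *Ccl5* was 2.84 (SE 0.52) in DSS against control, -0.80 (SE 0.48, edgeR adjusted p = 0.21) in DSS + EA against DSS, and 2.03 (SE 0.52, unadjusted p = 0.00276, edgeR adjusted p = 0.0636) in DSS + EA against control. The last is near the threshold and passed it in 5 of 16 alternatives, with adjusted p between 0.00342 and 0.211. Without DSS + EA mouse 1 the log2FC in DSS + EA against DSS was -1.50, with an adjusted p by edgeR of 0.0401.

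Among the receptors of CCL5, *Ccr1*, used by neutrophils and monocytes, had 3.87 ± 0.384, 29.2 ± 18.2 and 11.8 ± 3.18 CPM and rose in DSS against control (log2FC 2.91, SE 0.54, edgeR adjusted p = 0.00247). Its log2FC in DSS + EA against DSS was -1.31 (edgeR adjusted p = 0.059, but 0.00093 without DSS mouse 1). *Ccr3* and the decoy receptor *Ackr2* had 0 to 4 reads per mouse and were not tested.

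The filter on low counts kept 7 of the 10 genes, and *Cd3e*, *Cd8a* and *Itgae* were not tested. *Xcl1* and *Il15* did not overlap between DSS and either other group, which their choice fixed, and they are left out of the counts that follow. Of the other 5, *Cd4* and *Ccl5* were higher without overlap in DSS than in control, where 52.0% of all genes tested did not overlap, and nothing is read from that count. In DSS + EA against DSS, *Cd3g* was higher without overlap, 1 of 5 against 47.4% of all genes tested (24.2% higher). In DSS + EA against control, *Cd3g*, *Gzma*, *Gzmb* and *Ccl5* were higher without overlap, 4 of 5 against 32.2% of all genes tested (18.0% higher). By edgeR's adjusted threshold, 0 of the 5 passed in DSS + EA against DSS, against 35.5% of all genes tested, where 1 had an unadjusted p under 0.05 and DESeq2 called 0. Against control 0 of 5 passed in DSS + EA, against 3.64% of all genes tested, where 4 had an unadjusted p under 0.05 and DESeq2 called 1, *Ccl5*. The comparisons share the DSS or the control mice, so that they are not independent of each other.

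The genes were also set against the CD3 chains. The reads of each gene were divided by those of *Cd3d*, *Cd3e*, *Cd3g* and *Cd247* in the same mouse, which numbered 33, 19 and 29 in control, 21, 65 and 62 in DSS, and 53, 44 and 47 in DSS + EA. These ratios compare mice for 1 gene and not genes with each other, and for genes that other cells also use they mix the sources. *Xcl1* had 0.306 ± 0.0544 reads per CD3 chain read in control, 0.0159 ± 0.0275 in DSS and 0.280 ± 0.0691 in DSS + EA, so that the DSS + EA mice overlapped the control mice on this scale. *Cd8a* had 0.0993 ± 0.104, 0.0103 ± 0.0178 and 0.139 ± 0.0451, with DSS + EA above DSS in all mice (exact two-sided permutation p = 0.1, the smallest that 3 mice against 3 allow). *Itgae* had 0.173 ± 0.143, 0.0369 ± 0.0511 and 0.113 ± 0.0403, with DSS mouse 1 at 0.0952 among the DSS + EA mice (exact permutation p = 0.3 in DSS + EA against DSS). The DSS group was lowest by its mean for *Cd8a* and *Itgae*, on few reads, while its low ratio for *Xcl1* was fixed by the choice of that gene. In DSS mice 2 and 3 the CD3 chain reads that divide these genes were above those of every control mouse.

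*Gzmb* had 0.159 ± 0.022 reads per CD3 chain read in control, 0.255 ± 0.212 in DSS and 0.326 ± 0.0553 in DSS + EA, with DSS + EA above control in all mice (exact permutation p = 0.1). *Gzma* had 0.209 ± 0.103, 0.257 ± 0.102 and 0.383 ± 0.101, with overlap in each comparison (exact permutation p = 0.2 in DSS + EA against control). *Cd4* had 0.269 ± 0.0313, 0.347 ± 0.241 and 0.240 ± 0.129, where DSS mouse 1 held the highest value at 0.619. *Ccl5* had 1.30 ± 0.504, 6.28 ± 1.40 and 2.88 ± 1.88, and here the DSS + EA mice lay below all DSS mice (exact permutation p = 0.1). After Benjamini-Hochberg adjustment over the 12 tests of ratios, the smallest p was 0.4, so none passed, nor could any in groups of this size.

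**Figure D4:**
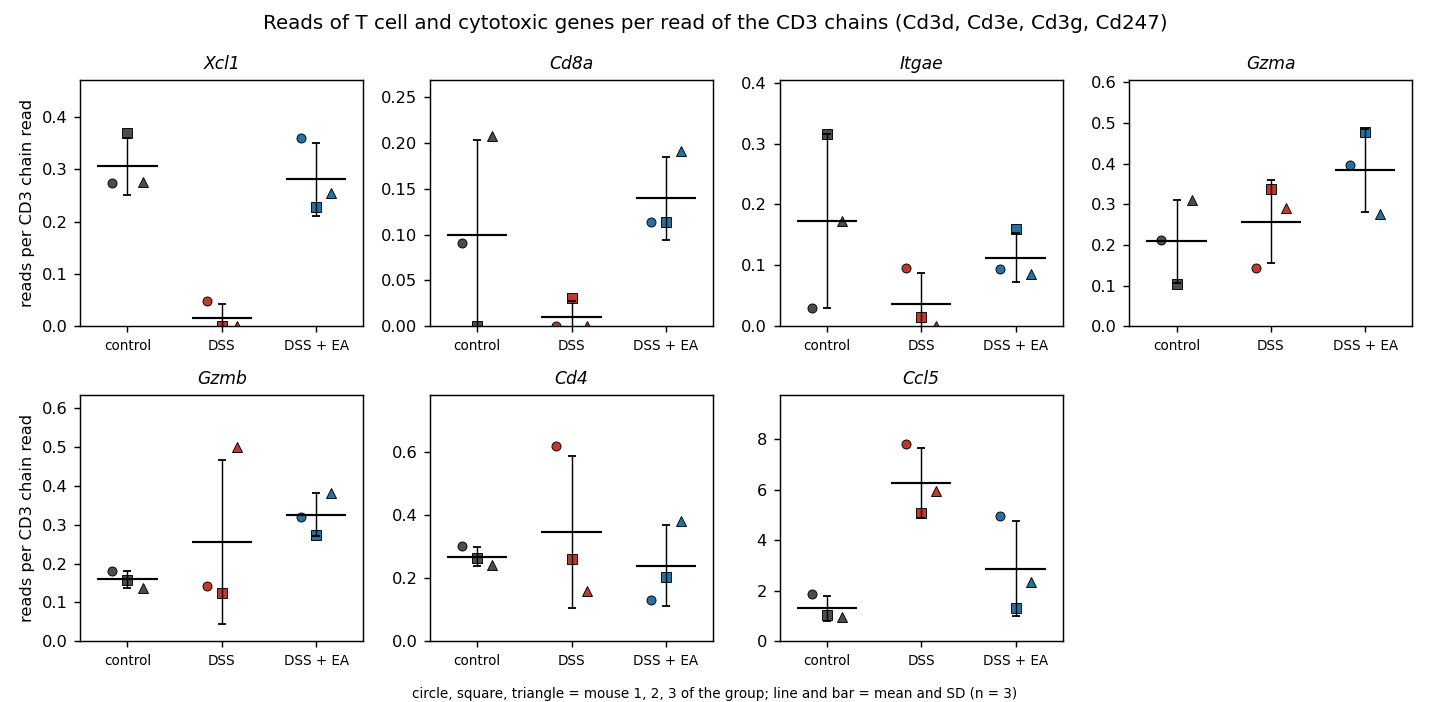
Reads of 7 genes per read of the 4 CD3 chain genes in the same mouse (vertical axes, linear) in the 3 groups. Each symbol is 1 mouse, lines are means and bars are SD (n = 3), cut off at 0. *Xcl1* and *Cd8a* have their lowest means in the DSS group (0.0159 and 0.0103), and for *Cd8a* the DSS and control mice overlap. *Ccl5* is highest in the DSS mice (mean of 6.28).

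The genes whose levels over the 9 libraries were most like those of *Xcl1*, by the root mean square difference of centred log2 CPM, were *Ms4a12* (0.260), a long non-coding RNA of the NONCODE database (0.276), *Chac2* (0.312) and *Slc25a20* (0.312). For *Il15* they were *Tmco3* (0.238), *C330018D20Rik* (0.260), *Gpr20* (0.307) and *Tmem139* (0.309). For *Cd8a* they were *Lman2l* (0.308), *Helz2* (0.386), *Clec2d* (0.398) and *Zfp873* (0.400). None of the 10 genes was among the 4 nearest of another of these 3.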

How the data were processed

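Colon RNA of 9 mice was sequenced as full-length cDNA on an Oxford Nanopore instrument. The authors deposited read counts per gene, without normalization. The genome build was mm10 per the submitters' processing notes, and the aligner, the counting tool, the annotation and the use of strand are not given in the sources used here, so reads of overlapping or near-identical genes could have been divided between them. Of 27733 lines, 14 held no counts.

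The test was the quasi-likelihood F test of edgeR 4.0.16 under R 4.3.3, after TMM scaling and filterByExpr by group, in a fit over the 9 libraries with group as the only term, which kept 12566 genes. The threshold was a Benjamini-Hochberg adjusted p of 0.05 over all of them. SE values follow from the F statistic. Where a group had 1 to 3 reads in all, the ratio of summed counts over TMM-scaled library totals, the scale of the CPM too, is given with an exact 95% interval. That interval takes reads and not mice as its units, and it is no test. The functions were tested on simulated data.

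The 10 genes and the 16 gene lists were chosen with earlier results of these data known. Genes named are the 10, their receptors, ligands and partners except 1 gene that is not reported here, up to 3 genes with the smallest p per list and comparison, and the 4 nearest patterns, unless the text says otherwise. Alternatives were DESeq2 1.42.0, RLE or library totals, no filter or a filter at 20 counts on average, fits of 2 groups only, the replicate number as a block, and each mouse left out. Same-numbered mice are different animals, and p-values measure only the spread between these mice. Figures used Python 3.11.15 and matplotlib 3.10.9. A p that misses the threshold does not show that levels were equal.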

Additional observations from a re-analysis of the deposited data

How the results depend on the processing

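The values rest on few reads: 3 counts came to 0.647 to 1.14 CPM, and each group had 3 mice, too few for a test of outlying mice. In DSS + EA against DSS, the number of the 5 tested genes past the threshold was 0, also without the filter on low counts, where the 1 gene called was *Cd8a*, which the filter otherwise removes; leaving out 1 mouse gave 0 to 2, with *Cd3g* and *Gzmb* called without DSS mouse 3 and *Ccl5* without DSS + EA mouse 1. In DSS + EA against control it was 0, 1 by DESeq2 and without the filter (*Ccl5*) and 2 with only both groups in the fit (*Ccl5*, *Gzmb*); leaving out 1 mouse gave 0 to 1, with *Ccl5* called without DSS mouse 1 or DSS + EA mouse 2 and *Gzmb* without DSS mouse 3. *Cd3g* in DSS + EA against DSS had adjusted p between 0.0305 and 0.185, and *Gzma* and *Cd4* passed in no alternative. With 1 mouse left out, the log2FC changed sign for *Cd3g* in DSS against control (-0.46 to 0.11, above 0 without DSS mouse 1), for *Gzmb* in DSS + EA against DSS (-0.07 to 1.82, below 0 without DSS mouse 1 or 2) and for *Cd4* in DSS + EA against DSS (-0.44 to 0.31, below 0 without DSS mouse 3 or DSS + EA mouse 3), and for the last also with library totals (-0.05) and with the replicate block (-0.03). The cause was not tested. *Il15* kept its direction in all 3 comparisons under every alternative run, with log2FC between -3.24 and -2.51, 2.22 and 2.94, and -0.51 and -0.00.

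Over all genes, DEGs (log2FC beyond 2.5 either way and unadjusted p under 0.01) numbered 1280 in DSS against control, 2293 without the filter and 789 with a mean of at least 20 counts, where fewer genes are tested. Between DSS + EA and DSS they numbered 806, 1519 and 515, and 757 to 1343 with 1 mouse left out, the highest without DSS mouse 1. Between DSS + EA and control they numbered 261, and 418 without the filter. Genes past the adjusted threshold there numbered 457, with 738 by DESeq2, 1147 with only both groups in the fit and 107 to 772 with 1 mouse left out.

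For the reads per CD3 chain read, the difference of group means changed sign with the pan-leukocyte list as the denominator for *Cd4* (-0.0154 in DSS against control, 0.00811 in DSS + EA against DSS), *Cd8a* (-0.00162 in DSS + EA against control), *Gzma* (-0.0159) and *Gzmb* (-0.00964) in DSS against control and *Ccl5* (0.072 in DSS + EA against DSS). With 1 mouse left out it ran from -0.0578 to 0.171, -0.200 to 0.0285 and -0.101 to 0.0246 for *Cd4* in the 3 comparisons, from -0.00946 to 0.094 for *Cd8a*, -0.131 to 0.0115 for *Itgae* and -0.0644 to 0.00607 for *Xcl1* in DSS + EA against control, and from -0.00402 to 0.105 for *Gzma* and -0.0263 to 0.162 for *Gzmb* in DSS against control.

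The replicate numbers were shared between groups, but the mice are different animals. The deviations of same-numbered mice from their group means correlated between -0.160 and 0.105, within the range for mice of different numbers (-0.204 to 0.256). With 3 mice per group this cannot exclude a batch shared by number. With the replicate block, 4543 genes passed in DSS against control (5145 without), 3826 in DSS + EA against DSS (4457 without) and 363 in DSS + EA against control (457 without), and 0 of the 5 tested genes passed in the latter comparisons.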

Other observations

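Of 4 tested B cell markers, 0 rose and 1 fell in DSS against control, and 3 rose and 0 fell in DSS + EA against DSS. The shares of all genes tested that passed were 40.9% and 35.5% in these comparisons and 3.64% in DSS + EA against control. *Ms4a1*, which encodes CD20, had 11, 10 and 0 reads in control, 0, 3 and 0 in DSS, and 15, 9 and 25 in DSS + EA. It rose 19.6-fold from the summed counts in DSS + EA against DSS (exact 95% interval 6.31 to 98.1, counting error only). Its adjusted p by edgeR was 0.0119. Its reads in the DSS group came from DSS mouse 2 alone, and without that mouse the adjusted p by edgeR was 0.0254. *Spib*, a transcription factor of B cells and of some epithelial cells, had 2.98 ± 1.19, 0.988 ± 0.0791 and 3.97 ± 1.27 CPM, and it fell in DSS (log2FC -1.57, edgeR adjusted p = 0.0207, lost in 3 of 14 alternatives) and rose in DSS + EA against DSS (log2FC 1.96, edgeR adjusted p = 0.00867). Of 7 tested plasma cell genes, 2 rose and 3 fell in DSS against control, 2 rose and 1 fell in DSS + EA against DSS, and 1 fell in DSS + EA against control. That gene was *Tnfrsf17*, the receptor BCMA, which had 8.73 ± 1.90 CPM in control, 0.178 ± 0.163 CPM in DSS and 1.05 ± 0.617 CPM in DSS + EA (log2FC -2.97 against control, edgeR adjusted p = 0.00961).

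Of 5 tested genes of CD4 helper and regulatory T cells, 2 rose and 0 fell in DSS against control, near the 40.9% of all genes tested that passed. In DSS + EA against DSS that share was 35.5%. *Ctla4*, a checkpoint receptor of regulatory and activated T cells, had 2, 0 and 0 reads in control, 12, 53 and 19 in DSS, and 3, 1 and 6 in DSS + EA. It rose 36.8-fold from the summed counts in DSS against control (exact 95% interval 9.86 to 309, counting error only). The adjusted p of this rise by edgeR was 0.00164. *Ctla4* fell in DSS + EA against DSS (log2FC -2.69, edgeR adjusted p = 0.0112, with a log2FC of -3.38 without DSS + EA mouse 3). Control mouse 1 held its 2 reads in control, and without that mouse the adjusted p by edgeR in DSS against control was 0.00682. *Icos*, a costimulatory receptor, had 2.18 ± 0.906, 8.24 ± 2.66 and 6.10 ± 0.379 CPM, and it rose in DSS (log2FC 1.87, edgeR adjusted p = 0.00402). Of 9 tested genes of naive and recirculating lymphocytes, 7 rose and 0 fell in DSS against control and 0 rose and 5 fell in DSS + EA against DSS, and several of them, such as *Coro1a*, are used by all leukocytes. Of 2 tested mast cell genes, *Kit* fell in DSS against control and 0 passed by edgeR in the other comparisons, where 1 had an unadjusted p under 0.05 in each and DESeq2 called 0. *Foxp3*, chosen after its values were seen as the defining factor of regulatory T cells, had 0 to 5 reads per mouse and was not tested.

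The following untested genes of killer and resident lymphocytes were picked after their values were seen. *Klrk1*, the receptor NKG2D, had 3, 3 and 4 reads in control, 1, 6 and 1 in DSS, and 15, 4 and 20 in DSS + EA. *Cxcr6*, a receptor of resident T cells, had 5, 4 and 3 reads in control, 0, 1 and 2 in DSS, and 11, 6 and 4 in DSS + EA. Because they were picked for these values, they carry no test and do not stand for the other untested genes of their lists, most of which are not shown. The summed level of the list with *Cxcr6* was higher in DSS mice 2 and 3 (56.9 and 47.1 CPM) than in any DSS + EA mouse (31.8 to 39.3 CPM). That of the list with *Klrk1* was highest in the DSS + EA mice.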
